A study of Capsicum annuum with 78 samples.

Results

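In pepper leaves 104 of 35884 genes counted lay below mock early and above mock late after ethephon (ET), a compound that breaks down in plant tissue and releases ethylene. The pattern is one of differences from mock, and a gene's own level after ET could rise, stay or fall. Ethylene is a gaseous plant hormone. It binds receptors in the endoplasmic reticulum, which relieves a block on EIN2, and EIN3-type transcription factors then switch on genes that include further transcription factors of the ERF family. In leaves ethylene is known for its part in senescence, abscission and defence, and many leaf genes also follow the daily cycle of light and dark.

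The genes were chosen by their difference from mock, which is the mean log2(CPM + 1) of 3 treated libraries minus that of 3 mock libraries of the same hour. CPM is a gene's count scaled by the total of its library, which makes libraries of different depth comparable. A gene needed a mean of at least 1 CPM over the 18 mock libraries, which 17566 genes had. Its difference, averaged over 1, 3, 6, 12 and 24 h, had to stay within 0.5 of 0 for each of the 4 hormones, which left 10315 genes. The lower of its ET values at 1 and 3 h had to be at most -0.7 and the higher of those at 12 and 24 h at least 0.7. These 104 genes passed both thresholds, so the upper limit of 150 genes was not reached. Without any limit on the means, 221 genes passed. The mirror image, at least 0.7 early and at most -0.7 late, was met by 43 genes, a count made after the values were seen.

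All plants were *Capsicum annuum* cv. Bukang, 6 weeks old, and the tissue was leaf. Plants received a spray of ethephon at 5 mM (ET), methyl jasmonate at 100 μM (MeJA), racemic abscisic acid at 100 μM (ABA), sodium salicylate at 5 mM (SA) or only distilled water (mock). Every treatment was sampled 1, 3, 6, 12 and 24 h later, and mock also at 0 h, with 3 libraries per group and 4 plants pooled in each library. Each treatment had its own incubation, so a treatment and its incubation cannot be told apart. Growth was under 16 h of light and 8 h of dark, and the hour of spraying is not given in the sources used here.

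The 78 libraries held 4470356 to 8851726 counts, with a median of 6618439. A floor of 3 counts lay between 0.339 and 0.671 CPM, which covers counting error only. None of the 78 pairs of replicates was identical, and every pair differed by more than sampling noise (chi-square of 1.99 to 22.9 per degree of freedom). In 3 groups 1 library stood farthest from the others. Replicate 1 of MeJA at 3 h differed from the other two by 22.4 and 22.9, against 3.87 between those, replicate 2 of MeJA at 12 h by 13.3 and 15.8 against 3.95, and replicate 3 of mock at 24 h by 10.4 and 12.7 against 4.89. Without each in turn the rule chose 107, 109 and 109 genes, which held 104, 104 and 92 of the 104. Other libraries stood apart by less and were not left out singly. Examples are replicate 1 of ABA at 12 h (9.61 and 10.5 against 5.18) and replicate 3 of mock at 12 h (7.24 and 6.67 against 3.47). The identifiers are those of the CM334 annotation, and 0 of 35884 were found in the RefSeq gene table used here. The 104 genes are therefore given by identifier with no name or function, no pathway list could be applied, and leaf markers could not be looked up.

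The ET values that chose the genes are a description, with no test. At 1 h the median difference from mock was -0.74, with 96 of 104 genes below mock, and at 3 h it was also -0.74, with 95 below. At 6 h the median was -0.17, with 63 genes below mock and 41 above. By 12 h it had turned to 0.88, with 91 genes above mock, and it stood at 0.36 by 24 h, with 72 above. Over the 17566 expressed genes the medians at these hours were -0.06, 0.00, 0.01, 0.09 and 0.08. In bulk leaf tissue, fewer cells of a type and less RNA per cell cannot be told apart.

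ET was below mock at both early hours in 87 genes, and the late maximum was mostly at 12 h. The early minimum was at 1 h in 55 genes and at 3 h in 49, and 14 genes were at or below -0.7 at both. The late maximum was at 12 h in 74 genes and at 24 h in 30, and 14 were at or above 0.7 at both. Of the 104 genes, 51 were below mock at 1 and 3 h and above it at 12 and 24 h. At 6 h 65 genes lay within 0.5 of mock, 27 were at or below -0.7 and 6 were already at or above 0.7. By 12 h ET was above mock in 91 genes and below it in 13, all of them among the 30 with the maximum at 24 h.

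**Figure D1:**
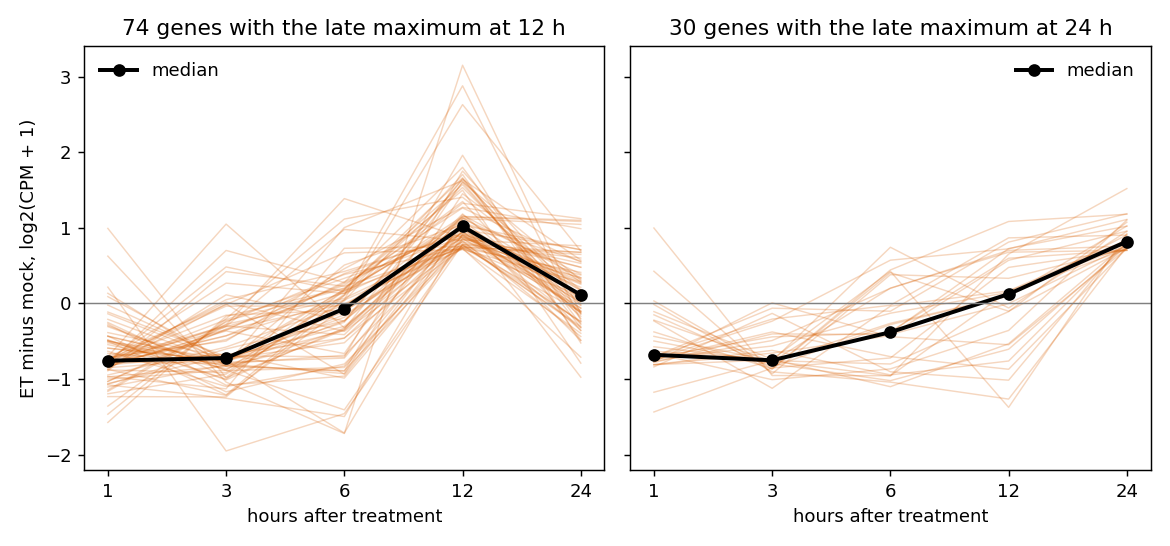
ET minus mock on the log2(CPM + 1) scale against hours after treatment (evenly spaced), with 1 thin line per gene and the median in black. The left panel holds the 74 genes with the late maximum at 12 h, whose median was 1.02 at 12 h and 0.11 at 24 h. The right panel holds the 30 genes with the maximum at 24 h, whose median was 0.12 at 12 h and 0.82 at 24 h.

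The groups of libraries rarely overlapped at the hours that chose a gene. All 3 ET libraries were below all 3 mock libraries at the early hour in 97 genes, and above them at the late hour in 96. Among all expressed genes, 27.7% were parted in this way downwards at 1 h and 27.0% at 3 h, and 35.9% upwards at 12 h and 30.3% at 24 h. The rule used these contrasts, so nothing is read from these counts and no test of them is given.

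The values nearest to the thresholds lay close on both sides. The 3 members nearest to the early threshold had -0.7002, -0.7041 and -0.7042, and the 3 nearest genes outside had -0.6997, -0.6980 and -0.6910. At the late threshold the nearest members had 0.7014, 0.7014 and 0.7036 and the nearest genes outside 0.6991, 0.6977 and 0.6903. Membership at the edge therefore turns on differences far smaller than the spread between replicates, which had a median SD of 0.28 in these genes and 0.22 in all expressed genes. Their level was ordinary, with a median of 11.96 CPM in mock (range 1.12 to 1480) against 15.002 CPM over the expressed genes.

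To measure the change in libraries that took no part in the choice, the choice was repeated with 1 replicate number left out of every group and the genes were measured in the libraries left out. This check was added after the data were seen. The choice without replicate 1 gave 120 genes, without replicate 2 139 and without replicate 3 110. At the early hour of each gene the median ET value was -0.86, -0.87 and -0.87 in the choosing libraries. It was -0.67, -0.61 and -0.63 in the 1 ET and 1 mock library left out. At the late hour the medians were 0.94, 0.99 and 0.93 in the choosing libraries and 1.06, 0.66 and 0.80 in those left out.

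The direction returned in most of these genes and the full size in fewer. ET was below mock early and above it late in 92 of 120 genes (76.7%), 117 of 139 (84.2%) and 90 of 110 (81.8%). Both thresholds were met again by 40 genes (33.3%), 31 (22.3%) and 29 (26.4%). Taken singly, ET was below mock at the early hour in 83.3%, 91.4% and 90.9% of the chosen genes. At the late hour it was above mock in 91.7%, 91.4% and 89.1%. Over all expressed genes, 48.4% to 60.9% were below mock in the left-out pair at 1 or 3 h and 46.2% to 65.1% above it at 12 or 24 h. The shares of all expressed genes with both signs, or past both thresholds, were not computed, so these joint counts are a description. The libraries left out also had the same treatments as the choosing ones. The 3 choices shared 66, 80 and 53 genes with the 104.

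The deepest early values belonged to CA.PGAv.1.6.scaffold982.29 and CA.PGAv.1.6.scaffold363.12. In CA.PGAv.1.6.scaffold982.29 the mock libraries held 3.41, 5.34 and 3.52 CPM at 3 h and the ET libraries 0.50, 0.119 and 0.299 CPM. These ET values are 4, 1 and 2 counts, of which the last 2 lie under the floor of 3 counts, so the size of the difference is poorly set. At 1 h ET had 3.93, 7.76 and 4.42 CPM and mock 5.82, 4.21 and 3.20 CPM, so the groups overlapped there, and by 6 h ET was still at 0, 0.268 and 0.256 CPM. At 12 h ET had 1.91, 4.12 and 2.78 CPM against 2.45, 0.906 and 0.682 CPM in mock, which also overlap. The log2 difference at 3 h was -1.95 and at 12 h 0.78.

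CA.PGAv.1.6.scaffold363.12 had more counts and varied less over the hours after ET than in mock. Mock held 137, 131 and 145 CPM at 1 h, 17.4, 21.1 and 34.0 CPM at 12 h, and 100.3, 99.8 and 90.2 CPM at 24 h. ET held 35.7, 48.6 and 53.8 CPM at 1 h, 74.8, 57.4 and 71.5 CPM at 12 h, and 57.7, 56.5 and 52.3 CPM at 24 h. ET was below all mock libraries at 1 and 24 h and above all of them at 12 h. Its means after ET stayed between 46.0 ± 9.3 and 72.3 ± 6.9 CPM (SD, n = 3), while those of mock ran from 24.2 ± 8.7 to 137 ± 7.0 CPM.

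The highest late values belonged to CA.PGAv.1.6.scaffold504.8 and CA.PGAv.1.6.scaffold363.25, both at 12 h. CA.PGAv.1.6.scaffold504.8 held 236, 261 and 244 CPM at 12 h after ET and 28.5, 24.9 and 27.4 CPM in mock, a log2 difference of 3.15. The rise was brief, since ET held 13.0, 12.3 and 12.5 CPM at 6 h and 13.4, 16.9 and 12.4 CPM at 24 h. At 3 h ET held 11.7, 11.97 and 10.2 CPM and mock 22.6, 27.9 and 22.7 CPM, with no overlap, and at 1 h ET was the higher with 42.4 ± 5.9 CPM against 27.1 ± 3.3 CPM (SD, n = 3).

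The other hormones parted at 12 h in CA.PGAv.1.6.scaffold504.8. The ABA libraries held 115, 127 and 142 CPM, those of SA 10.7, 9.41 and 8.88 CPM and those of MeJA 6.86, 8.48 and 15.2 CPM. Without use of mock or ET, SA was lower than ABA by a log2 change of -3.77 ± 0.24 (SE, edgeR adjusted p = 1.06e-16) and MeJA by -3.65 ± 0.24 (edgeR adjusted p = 1.67e-15). All 3 SA and all 3 MeJA libraries were below all 3 ABA libraries.

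In CA.PGAv.1.6.scaffold363.25 the late ET value stood beside a very low mock level. The mock libraries at 12 h held 1, 2 and 4 counts (0.129, 0.302 and 0.546 CPM), and those at 1 h held 14.1, 17.6 and 17.2 CPM. ET held 10.8, 6.48 and 9.21 CPM at 12 h, close to its own 8.48, 6.83 and 10.1 CPM at 1 h. At 24 h mock was back at 14.8 ± 0.34 CPM and ET was at 12.6 ± 1.0 CPM (SD, n = 3). The log2 difference of 2.88 at 12 h is on the log2(CPM + 1) scale, which understates the change of so low a mock value.

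**Figure D2:**
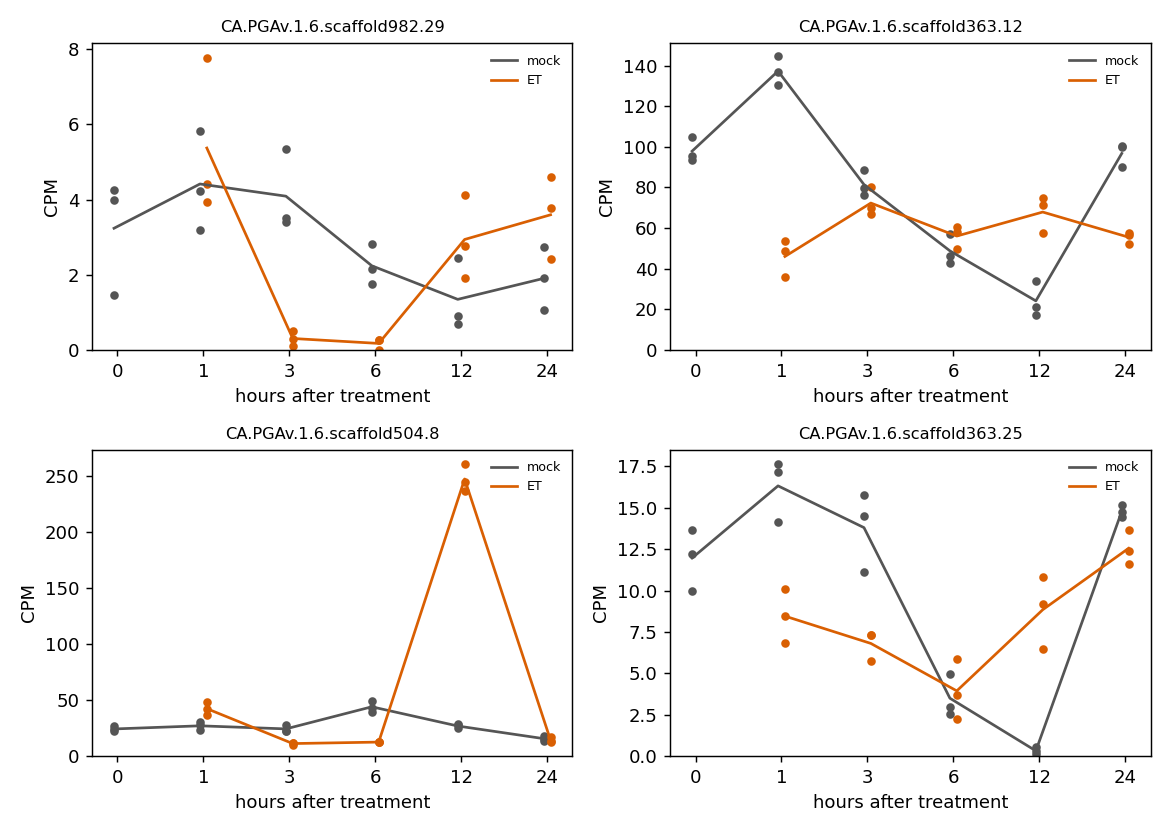
CPM of 4 genes in each ET and mock library against hours after treatment (evenly spaced), with points for libraries and lines through the means of 3. The upper panels hold the deepest early values and the lower panels the highest late values. CA.PGAv.1.6.scaffold504.8 peaks at 236 to 261 CPM at 12 h after ET, while mock of CA.PGAv.1.6.scaffold363.25 drops to 0.129 to 0.546 CPM at that hour.

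Low mock levels at 12 h were common in these genes. Mock was lowest at 12 h in 36 genes (34.6%), against 10.9% of all expressed genes, while the share lowest at 24 h, 37.5%, was near the 36.2% of all expressed genes. At 12 h the mock level was at least 1 log2 unit below its mean of 1 and 3 h in 29 of the 104 genes (27.9%), and in 5.25% of the expressed genes. A rule that asks for ET below mock early and above mock late favours such a mock course, so these counts are a description.

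The median level of the 104 genes changed over the hours in both treatments. In mock at 0, 1 and 3 h it was 3.80 ± 0.22, 3.90 ± 0.14 and 3.69 ± 0.08 on the log2(CPM + 1) scale (SD, n = 3 libraries), and it had dropped to 3.34 ± 0.09 by 6 h, with 3.39 ± 0.07 and 3.39 ± 0.11 at 12 and 24 h. After ET it was low early, with 3.34 ± 0.09, 3.14 ± 0.10 and 3.20 ± 0.03 at 1, 3 and 6 h, and high late, with 3.94 ± 0.11 and 3.82 ± 0.17 at 12 and 24 h. The median over all expressed genes was 3.77, 3.98, 4.08, 4.29 and 3.86 after ET at 1, 3, 6, 12 and 24 h and 3.85, 3.93, 4.06, 4.15 and 3.75 in mock. From 1 to 12 h after ET the median over all expressed genes thus went up as well. In mock the median moved up over all expressed genes and down in the 104. These levels are scaled by library totals, and the change over all genes depends on that scaling, as given below. The 0 h libraries entered the choice only through the mean mock level. They lay near mock at 1 h, within the spread of the libraries, and above every ET library at 1, 3 and 6 h.

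The 2 groups by late hour had different mock courses. In the 74 genes with the late maximum at 12 h, the mock median dropped to 2.88 ± 0.16 at 12 h and was 3.77 ± 0.18 at 24 h. In the 30 genes with the maximum at 24 h it was 3.85 ± 0.07 at 12 h and 2.71 ± 0.28 at 24 h. ET levels at these hours were 3.94 ± 0.16 and 3.89 ± 0.17 in the first group and 3.97 ± 0.12 and 3.63 ± 0.10 in the second (SD, n = 3 libraries).

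**Figure D3:**
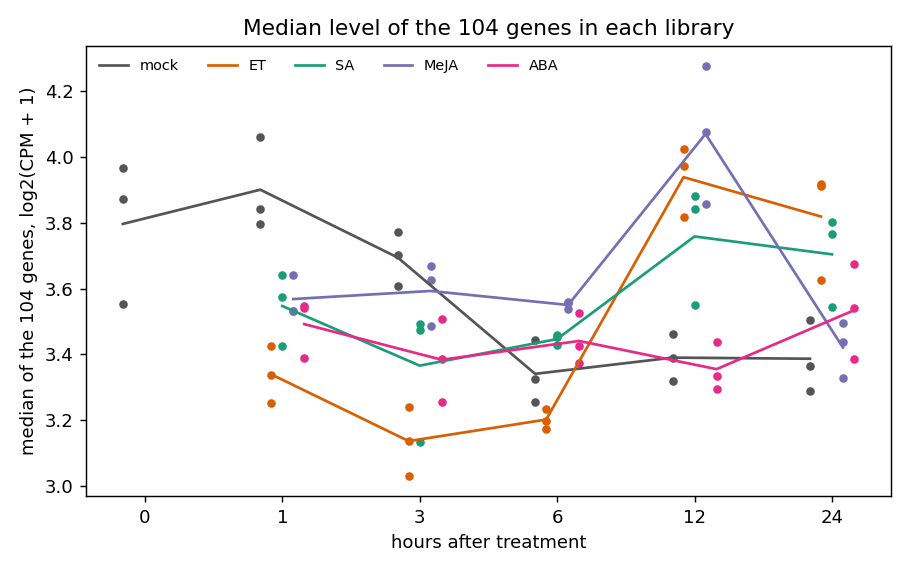
Median over the 104 genes on the log2(CPM + 1) scale in each library, against hours after treatment (evenly spaced), with lines through the means of 3 libraries. At 1 to 6 h the ET points sit low (means 3.34, 3.14 and 3.20) and at 12 h ET and MeJA sit highest (3.94 and 4.07), while mock runs from 3.90 at 1 h to 3.39 at 12 and 24 h.

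The other hormones were compared with the same mock libraries, and their mean over the 5 hours entered the rule, so their differences from mock are given side by side with no test. At 1 h the median difference was -0.27 with SA, -0.41 with MeJA and -0.35 with ABA. At 3 h the values were -0.35, -0.20 and -0.30, and at 6 h 0.05, 0.21 and 0.03. At 12 h they were 0.53 with SA, 0.76 with MeJA and 0.15 with ABA, and at 24 h 0.31, 0.15 and 0.29. The medians over all expressed genes ran from -0.07 to 0.19 in these comparisons, with 0.13 for SA, 0.14 for MeJA and 0.08 for ABA at 12 h. With TMM scaling, which sets libraries to a common level over most genes, the members' medians at 12 h were 0.33 with SA, 0.62 with MeJA and 0.05 with ABA, and SA at 24 h had 0.11.

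The late values differed by group of genes. In the 30 genes with the late ET maximum at 24 h, SA at 24 h had a median of 0.72. It was above mock in 29 of them (96.7%, against 71.8% of all expressed genes). MeJA at 24 h had 0.17 with 23 above mock (76.7% against 53.5%), and ABA 0.35 with 25 above (83.3% against 54.0%). The share above mock thus exceeded that of all expressed genes with each of these hormones, not with SA alone. With TMM scaling the SA median was 0.54, again with 29 above mock. In the 74 genes with the maximum at 12 h, MeJA at 12 h had a median of 0.91 with 68 above mock (91.9%, against 64.8% of all) and SA 0.62 with 65 above (87.8% against 60.1%). ABA had 0.12 with 47 above, and its 63.5% was near the 59.6% of all. The hormones share the mock libraries that chose the genes, so these values are not independent of the ET values.

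To ask how the genes behaved without the libraries that set the thresholds, the 45 SA, MeJA and ABA libraries were fitted alone. Direct comparisons at 12 h, added after the data were seen, parted MeJA and SA from ABA. MeJA was higher than ABA in 55 of 104 genes (52.9%) and lower in 10 (9.62%), where 16.1% and 14.2% of 19021 genes tested were higher and lower (edgeR's quasi-likelihood test, adjusted p under 0.05). The median log2 difference was 0.62 over the 104 genes and 0.03 over all genes. SA differed from ABA in 52 of the 104 genes (50%, against 42.3% of all genes), a total near its background. It was higher in 43 (41.3% against 22.3%) and lower in 9 (8.65% against 20.04%). The medians were 0.48 over the 104 and 0.01 over all genes.

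Without replicate 2 of MeJA at 12 h, MeJA was higher than ABA in 41 genes and lower in 8, and SA differed from MeJA in 30. The shares of all genes without that library are not given here. In the fit of all 45 libraries SA was also compared with MeJA at 12 h. It was higher in 12 genes and lower in 26, against 14.7% and 14.4% of all genes, and the median was -0.32 over the 104 and -0.03 over all. Of the 74 genes with the late ET maximum at 12 h, 48 were higher with MeJA than with ABA and 5 lower. Of the 30 with the maximum at 24 h, 7 were higher and 5 lower, which is near the 16.1% and 14.2% of all genes tested. This split by late hour was made after the values were seen and its difference was not tested.

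The second question was whether the course from early to late also appeared with the other hormones. The mean of 12 and 24 h minus the mean of 1 and 3 h was tested within each hormone. With SA, 30 of the 104 genes rose and 25 fell, against 18.0% and 23.7% of all genes. With MeJA, 34 rose and 28 fell, against 21.4% and 24.8%. With ABA, 24 rose and 36 fell, against 18.3% and 24.6%. The median changes were 0.09, -0.04 and -0.15, and those over all genes -0.02, 0.00 and -0.03, so the genes had no common direction.

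Within ET, which chose the genes, the same change had a median of 0.62 on the log2(CPM + 1) scale with 93 of 104 above 0, and within mock -0.51 with 80 below 0. On that scale it was 0.32 with SA, 0.12 with MeJA and 0.01 with ABA. All expressed genes had medians of 0.21 with ET, 0.09 with mock, 0.26 with SA, 0.14 with MeJA and 0.09 with ABA on it. With TMM effective library sizes on the same scale and genes, the medians over all expressed genes were 0.01, 0.03, -0.01, 0.00 and 0.00 in that order. Those of the 104 genes were then 0.46 with ET, -0.57 with mock, 0.10 with SA, -0.02 with MeJA and -0.08 with ABA.

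The late hours were also taken singly against 1 and 3 h. With 12 h alone, 35 genes rose and 33 fell with SA, where 23.8% and 24.3% of all genes did. With MeJA 39 rose and 22 fell, against 23.0% and 22.3%, and with ABA 27 rose and 42 fell, against 24.04% and 25.4%. The falls with MeJA and the rises with ABA are near these shares. With 24 h alone, 41 rose and 22 fell with SA (14.5% and 19.9% of all). With MeJA 45 rose and 28 fell (22.8% and 25.3%), and with ABA 50 and 27 (20.98% and 24.3%). These falls are near the shares of all genes. The median changes with 12 h alone were -0.03 with SA, 0.10 with MeJA and -0.27 with ABA. With 24 h alone they were 0.21, 0.24 and 0.28, against -0.029, -0.025 and -0.0235 over all genes.

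Some genes went opposite ways at 12 and 24 h. With ABA, 28 of the 104 (26.9%) fell at 12 h and rose at 24 h and 18 (17.3%) did the reverse, against 6.68% and 5.61% of all genes tested. With SA these were 14 and 13 genes (13.5% and 12.5%) against 2.89% and 3.34%, and with MeJA 11 and 12 genes (10.6% and 11.5%) against 3.99% and 3.74%. Genes that rose at both hours numbered 22 with MeJA (21.2% against 8.58%), 12 with SA (11.5% against 6.45%) and 6 with ABA (5.77% against 5.98%).

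The course itself differed between hormones. It differed between SA and MeJA in 49 of the 104 genes (22 higher and 27 lower with SA), where 11.4% of all genes were higher and 13.6% lower. Between SA and ABA it differed in 29 genes (19 higher and 10 lower with SA) against 12.8% and 12.2%, and between MeJA and ABA in 26 genes (20 higher and 6 lower with MeJA) against 6.91% and 5.37%. The SA and ABA count, 27.9% of the 104 genes, lies near its background. Without replicate 3 these counts were 31, 19 and 15 genes, and without replicate 2 the last was 16. With 12 h alone as the late hour the MeJA and ABA courses differed in 53 genes, and with 24 h alone in 15. The shares of all genes under these alternatives are not given here, so nothing particular to the 104 is read from them.

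**Figure D4:**
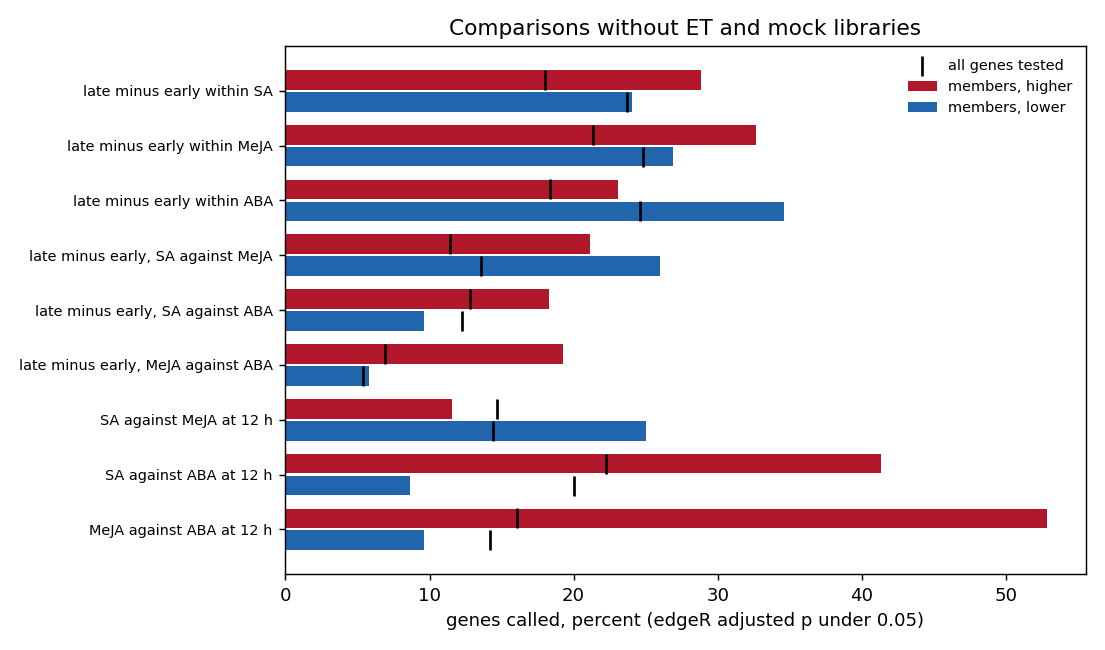
Share of the 104 genes called higher (red) and lower (blue) by edgeR at an adjusted p under 0.05 in 9 comparisons that use no ET and no mock library, with the share among all 19021 genes as black ticks. MeJA against ABA at 12 h has the longest red bar, 52.9% against a tick at 16.1%. SA, MeJA and ABA entered the choice of the genes through their mean difference from mock.

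The course rose with all 3 hormones in 16 genes (15.4%, against 6.20% of all genes tested) and fell with all 3 in 10 (9.62% against 10.9%). In 12 genes (11.5% against 30.2%) no hormone passed the test. By the mean of edgeR's log2 changes, the 16 were led by CA.PGAv.1.6.scaffold401.4 and CA.PGAv.1.6.scaffold377.23. This order depends on low early counts, since CA.PGAv.1.6.scaffold276.1, looked up after the values were seen, had changes of 2.57, 3.36 and 2.08 with SA, MeJA and ABA on the log2(CPM + 1) scale and CA.PGAv.1.6.scaffold377.23 had 1.23, 1.87 and 1.03. CA.PGAv.1.6.scaffold401.4 held at most 1.46 CPM in every library at 3 h and rose steeply by 12 h, with 17.6, 22.5 and 12.9 CPM after SA, 46.3, 32.8 and 28.1 CPM after MeJA and 16.6, 19.0 and 16.3 CPM after ABA. Its log2 change was 3.22 ± 0.27 with SA and 4.12 ± 0.26 with ABA (SE, edgeR adjusted p = 3.53e-13 and 5.39e-17). It also rose with MeJA (edgeR adjusted p = 2.06e-18), where 0, 3 and 1 counts at 3 h leave the size of the rise unset. The libraries at 3 h held 7, 2 and 2 counts with SA and 2, 10 and 3 with ABA, so those sizes are loosely set too.

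ET lay below mock in CA.PGAv.1.6.scaffold401.4 at 12 h and above it at 24 h. Mock held 26.8, 27.2 and 27.6 CPM and ET 9.95, 12.4 and 7.75 CPM at 12 h. At 24 h mock held 9.74, 6.33 and 9.16 CPM and ET 16.6, 18.3 and 15.1 CPM. The groups did not overlap at either hour, and ET was higher at 24 h than at 12 h while mock was lower.

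CA.PGAv.1.6.scaffold377.23 had its highest mean at 12 h in mock and with every hormone. At that hour ET held 7.53, 8.39 and 7.02 CPM, MeJA 8.57, 12.5 and 5.99 CPM, ABA 5.78, 3.39 and 3.54 CPM, SA 1.12, 2.43 and 2.70 CPM and mock 1.93, 2.72 and 5.19 CPM. ET was above all mock libraries there, and also at 24 h, with 4.17, 4.398 and 3.02 CPM against 1.03, 0.745 and 1.73 CPM. At 3 h ET held 0.125, 0.119 and 0 CPM, which is under the floor, and mock 0.974, 0.501 and 1.56 CPM. Its course rose by 1.44 ± 0.38 with ABA on the log2 scale (SE, edgeR adjusted p = 0.00186). It also rose with SA and MeJA (edgeR adjusted p = 0.000107 and 1.15e-06), but the early libraries held 0 to 3 counts with SA and 0 to 4 with MeJA, so no size is given.

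The largest mean falls were those of CA.PGAv.1.6.scaffold567.105 and CA.PGAv.1.6.scaffold986.42, which nearly vanished at 12 h in every treatment and returned by 24 h. CA.PGAv.1.6.scaffold567.105 held 989, 993 and 1019 CPM in mock at 1 h, 3.87, 4.53 and 4.64 CPM at 12 h and 748, 725 and 823 CPM at 24 h. Early after ET it held 501, 448 and 472 CPM (1 h) and 189, 196 and 221 CPM (3 h), and late 11.5, 7.07 and 14.6 CPM (12 h) and 971, 1092 and 944 CPM (24 h). Mock at 3 h held 536, 411 and 509 CPM, so ET was lower by about the same log2 amount at 1 h (-1.08) and at 3 h (-1.25). ET was above all mock libraries at 12 and 24 h. The high late value of 1.12 at 12 h thus belongs to a level near the lowest in its course.

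CA.PGAv.1.6.scaffold986.42 followed the same shape. Mock held 81.9, 83.0 and 74.2 CPM at 1 h, 1.29, 2.11 and 0.136 CPM at 12 h and 97.7, 99.7 and 76.9 CPM at 24 h. ET held 36.5, 35.7 and 32.5 CPM at 3 h against 64.8, 57.3 and 56.7 CPM in mock, and 8.76, 13.4 and 12.03 CPM at 6 h against 49.8, 32.9 and 36.6 CPM. ET was below all mock libraries at both hours. At 12 h ET held 3.19, 1.91 and 3.51 CPM, which overlaps with mock.

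With SA, MeJA and ABA the log2 change of CA.PGAv.1.6.scaffold567.105 was -2.999 ± 0.18, -2.34 ± 0.18 and -2.10 ± 0.18 (SE, edgeR adjusted p = 1.12e-17, 9.78e-15 and 8.61e-13). That of CA.PGAv.1.6.scaffold986.42 was -3.03 ± 0.17, -1.77 ± 0.16 and -2.57 ± 0.17 (SE, edgeR adjusted p = 2.58e-19, 2.61e-12 and 1.22e-16). These falls rest on 12 h. With 24 h alone as the late hour the changes of the first gene were 0.42, 0.95 and 2.04, and those of the second -0.25, 0.79 and 0.63.

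**Figure D5:**
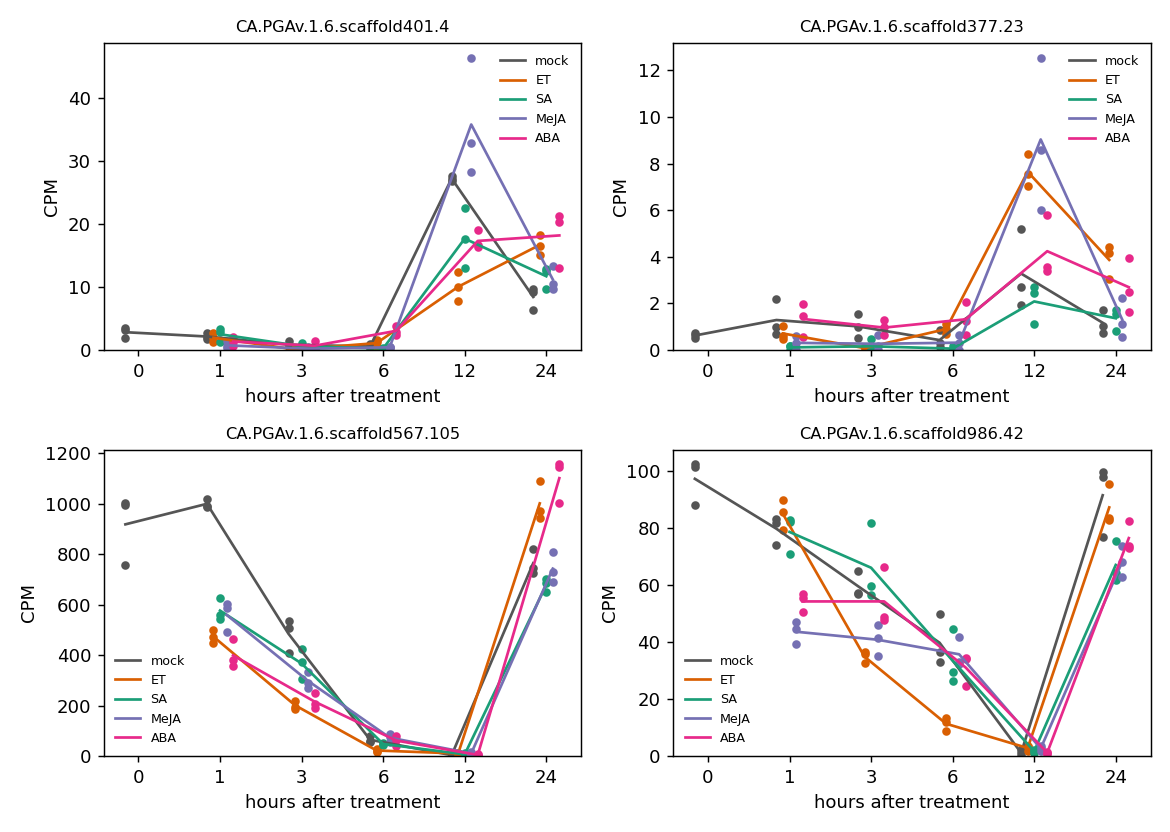
CPM of 4 genes in each library of all treatments against hours after treatment (evenly spaced), with lines through the means of 3 libraries. The upper panels hold the largest mean rises with SA, MeJA and ABA by edgeR's log2 change, and the lower panels the largest mean falls. Mock of CA.PGAv.1.6.scaffold567.105 runs from 1000.3 CPM at 1 h to 4.35 CPM at 12 h and 765 CPM at 24 h.

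The 104 genes lay on 93 scaffolds of the CM334 assembly, by the scaffold number in their identifiers. At most 3 lay on 1 scaffold, and 20 of them shared one of 9 scaffolds. Of 135 expressed genes numbered directly before or after a member on its scaffold, 4 (2.96%) were members too, which are 2 adjacent pairs on scaffolds 226 and 2073. Members made up 0.592% of all expressed genes. Whether adjacent members are copies that share reads could not be checked, since no sequences were used.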

How the data were processed

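Pepper leaf RNA was sequenced in 78 strand-specific libraries. The authors clipped adapters (Cutadapt), trimmed low-quality ends (Trimmomatic) and aligned the reads by Hisat2 to version 1.6 of the CM334 genome. HTSeq-count then gave the deposited values, which are raw counts per gene. The submitters' processing notes name cutadapt 1.15, Trimmomatic 0.38, FastQC 0.11.8 and HTSeq 0.11.2. The strand setting and the handling of reads with several positions are not given in the sources used here. Since CM334 is not the cultivar sampled, reads of diverged genes may be missing.

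CPM was computed from column totals (Python 3.11.15, pandas 2.3.3). Each column carried 1 sample's title. The 104 genes, the groupings and the tests were chosen with earlier results of these data known. Tests used edgeR 4.0.16 in R 4.3.3 (filterByExpr, TMM, glmQLFit, glmQLFTest) with Benjamini-Hochberg adjustment over all genes tested and 0.05 as threshold, and the code was tested on simulated data. SA, MeJA and ABA were fitted together (45 libraries). The planned fit of ET with mock (30 libraries) is not reported, since those contrasts chose the genes. Standard errors came from the F statistic. All 104 genes passed the filter. Genes named were the 2 lowest early and the 2 highest late ET values, and the 2 largest mean rises and falls among genes called in one direction with SA, MeJA and ABA. Alternatives were RLE scaling, DESeq2 1.42.0, no filter, at least 10 counts in every library, a replicate block, each replicate left out, a single late hour, 3 single libraries left out after the data were seen, a fit of 6 libraries, and other pseudocounts, CPM minimums and scalings for the choice. Libraries are separate biological samples of pooled plants, as the paper's methods state.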

Additional observations from a re-analysis of the deposited data

Results flagged for a closer look

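The change from early to late hours (12 and 24 h against 1 and 3 h) differed between hormones by a direct test without mock and ET libraries, with edgeR at an adjusted p under 0.05. Between SA and MeJA it differed in 49 of the 104 genes (47.1%, against 24.99% of all genes tested) and between MeJA and ABA in 26 (25%, against 12.3%). Between SA and ABA it differed in 29 (27.9%), near the 25.04% of all genes. Groups of 3 libraries were not screened for outlying values gene by gene.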

How the results depend on the processing

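The number of genes chosen was 186 with a pseudocount of 0.1 and 37 with 5, of which 86 and 27 were among the 104, and it ranged from 110 to 139 with a replicate left out. It was 75 with TMM and 71 with RLE scaling, of which only 61 and 60 were among the 104, 80 with a minimum of 5 CPM and 108 with none. Among the median differences from mock, TMM scaling changed ET at 12 h to 0.74, SA at 12 h to 0.33, SA at 24 h to 0.11 and SA at 6 h to -0.013. A pseudocount of 0.1 changed ET at 12 h to 1.03. With a replicate left out, ET at 3 h ranged from -0.77 to -0.60 and SA at 6 h from -0.011 to 0.052. The 106 alternative medians cover TMM scaling, the pseudocount of 0.1, and replicates or single libraries left out. Of them, 99 moved by less than the spread between libraries and kept their sign. Of 105 counts of genes called without mock and ET, 99 stayed within 1.5 times. The courses with a replicate left out differed in 31 to 37 genes between SA and MeJA, 19 to 23 between SA and ABA and 15 to 20 between MeJA and ABA, and without replicate 1 of MeJA at 3 h alone in 50, 32 and 26. The MeJA and ABA count was 53 with 12 h alone and 15 with 24 h alone as the late hour. The cause of these changes was not tested, and the shares of all genes under these alternatives are not given here.

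Same-numbered ET and mock libraries of an hour had deviations with a mean correlation of 0.02 (-0.22 to 0.14). Those of SA, MeJA and ABA had a mean of -0.03 (-0.29 to 0.19). No pairing by number showed in these values, which cannot exclude one. With the replicate block, the courses differed in 48 genes between SA and MeJA, 29 between SA and ABA and 25 between MeJA and ABA. The shares of all genes with that block are not given here.

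With 24 h alone as the late hour, the change turned to 0.42 with SA in CA.PGAv.1.6.scaffold363.12, to -0.88 with ABA in CA.PGAv.1.6.scaffold504.8, to 0.31, 0.59 and 1.28 with SA, MeJA and ABA in CA.PGAv.1.6.scaffold363.25, to 0.42, 0.95 and 2.04 in CA.PGAv.1.6.scaffold567.105, and to 0.79 with MeJA and 0.63 with ABA in CA.PGAv.1.6.scaffold986.42. With 12 h alone it turned to -0.79 with ABA in CA.PGAv.1.6.scaffold363.12. With a replicate left out it ranged from -0.14 to 0.22 with ABA in CA.PGAv.1.6.scaffold363.12 and from -0.61 to 0.072 with MeJA in CA.PGAv.1.6.scaffold982.29, and turned in both without replicate 1. Of the 104 genes, 9 had at most 3 counts in every library of some group, where depth limits any difference.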
